A study of Arabidopsis thaliana with 9 samples.

Results

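A set of 155 genes had lower transcript levels than wild type in both Arabidopsis thaliana lines that carry extra CONSTANS, out of 32833 genes in the count table. CONSTANS (CO) is a B-box zinc finger protein of the photoperiod pathway, known for switching on FT in phloem companion cells in long days. Members were chosen on CPM, each gene's count scaled to a total of 1000000 counts per sample. A member had a Col-0 mean of at least 1 CPM, a mean in each line no higher than the Col-0 mean divided by 1.8, and all 6 samples of the CO lines below all 3 Col-0 samples. Of 17256 genes with a Col-0 mean of at least 1 CPM, 498 met the fold condition in 35S:CO and 1689 in SUC2:CO, 234 met it in both, and 157 also had no overlap. The rule leaves out 2 of these loci. The levels in the lines and in Col-0 chose the members, so the differences from Col-0 are given as a description and carry no test.

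RNA was sequenced from seedlings of 3 genotypes, with 3 samples each. The 35S:CO line expresses CO from the viral 35S promoter, known for broad activity. The SUC2:CO line, labelled SUC2:HA:CO, expresses a CO with an HA tag from the companion cell promoter of SUC2 and carries co-10, so it differs from wild type in its background as well as the transgene. Col-0 is the wild type, and all 9 samples were of this accession, sown on soil under long days (16 h light, 8 h dark, 22 °C) and harvested 7 days after germination at zeitgeber time 14. The labels do not say whether a line is 1 transformation event, nor whether the samples of a genotype came from separate plantings, so p-values measure only the spread between these samples, which may be technical.

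Ribosomes are built in the nucleolus, where RNA polymerase I transcribes the rRNA precursor and small nucleolar RNAs with their proteins guide its modification and cleavage. In growing plant tissue the genes for this machinery and for ribosomal proteins are known to be expressed together, and many carry a telo-box or a site II element near their start. Organelle biogenesis, glutaredoxins of the plant-specific class that act in redox and nitrate signalling, amino acid and nitrate transporters, and proteins of the expanding cell wall make up other groups of members. The members were 35, 29, 33, 18 and 40 genes on chromosomes 1 to 5, in that order, and 145 of the 155 were protein-coding.

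Total counts ran from 25563118 to 26636174 per sample, so that 3 counts, taken as the smallest detectable level, were 0.113 to 0.117 CPM. CO itself had 558, 642 and 724 CPM in 35S:CO, 49.4, 48.4 and 59.1 CPM in SUC2:CO, and 9.61, 9.51 and 8.71 CPM in Col-0, higher in both lines than in Col-0 in every sample. Counts do not tell a transgene from the endogenous gene. The 9 green tissue markers summed to 85738 to 94240 CPM in 35S:CO, 77080 to 87600 CPM in SUC2:CO and 83788 to 94883 CPM in Col-0, in keeping with the labelled seedling. Of 11 root markers, 8 stayed under 1 CPM everywhere, and 3 of these 8 were at 0 in all 9 samples. The summed root level was 94.5 to 178 CPM in 35S:CO, 81.2 to 82.7 CPM in SUC2:CO and 113 to 202 CPM in Col-0. Of the 3 root markers tested, 1 had a log2 difference from Col-0 below 0 in SUC2:CO, and the median was 0.15. In 35S:CO 1 was below 0 as well, and the median was 0.027. The sum thus does not speak for the root markers as a set. Of 7 root hair markers, 4 were at 0 in all samples and the summed level never passed 0.304 CPM. The 4 phloem companion cell markers, which include FT and SUC2, summed to 290 to 359 CPM in 35S:CO, 466 to 528 CPM in SUC2:CO and 227 to 278 CPM in Col-0. They did not move together. In each line 1 of the 4 was lower and 1 higher than in Col-0 (edgeR's quasi-likelihood test, adjusted p under 0.05). Their median log2 differences from Col-0 were 0.015 in 35S:CO and 0.11 in SUC2:CO. The 5 xylem markers summed to 50.7 to 56.0 CPM in 35S:CO, 35.1 to 57.5 CPM in SUC2:CO and 54.1 to 55.1 CPM in Col-0, and the 7 seed storage genes stayed under 1 CPM in sum in every sample. No member is on a marker list, and the part of these tissues in the results was not tested. Most root markers and all root hair markers were thus under 1 CPM, and how much root tissue the samples held was not tested. In RNA from a mix of cell types, fewer cells of a type and less RNA per cell cannot be told apart.

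By mean level, most members were lower in SUC2:CO than in 35S:CO, and both were by the rule below Col-0. The median member kept 47.5% of its Col-0 mean in 35S:CO and 35.8% in SUC2:CO. The Col-0 mean was 2.10 times the 35S:CO mean in the median member, with quartiles of 1.91 and 2.80, and 2.80 times the SUC2:CO mean, with quartiles of 2.20 and 3.66. The SUC2:CO mean was below the 35S:CO mean in 114 members and above it in 41. The rule capped both means against the same Col-0 samples, and 498 genes met the cap in 35S:CO against 1689 in SUC2:CO. This order therefore describes the chosen genes and is not a test of them. Of 154 members tested, 15.6% were called between the lines, against 18.8% of all genes. A ratio of at least 4 was reached by 16 members in 35S:CO, by 33 in SUC2:CO and by 10 in both. Mean levels in Col-0 ran from 1.02 to 212 CPM, with 73 members at 10 CPM or more.

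**Figure D1:**
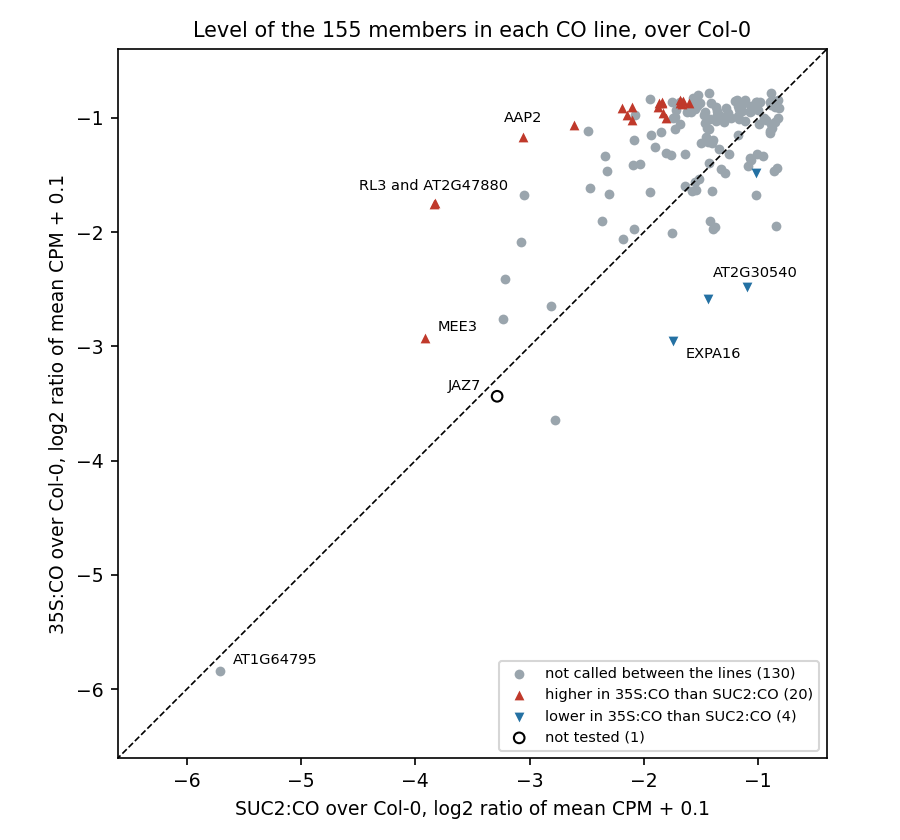
Each point is 1 of the 155 members, with the log2 ratio of mean CPM (0.1 CPM added) of SUC2:CO over Col-0 on the x axis and of 35S:CO over Col-0 on the y axis, and the colour giving the test between the lines. The rule fixes that every point lies below 0 on both axes, and 114 points have the SUC2:CO mean below the 35S:CO mean.

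The distance to Col-0 was narrow for many members. The lowest Col-0 sample was 1.30 times the highest CO-line sample in the median member, under 1.1 times in 25 members and at least 1.5 times in 45. Col-0 replicate 1 was the highest Col-0 sample in 99 members and Col-0 replicate 2 the lowest in 93. Replicate 3 was the highest 35S:CO sample in 97 members and the highest of all 6 CO-line samples in 78, and replicate 1 the highest SUC2:CO sample in 104. The samples of a genotype thus moved together over many members, and the condition of no overlap rested mostly on Col-0 replicate 2 and 35S:CO replicate 3. Without Col-0 replicate 2 the rule gave 412 genes, and without 35S:CO replicate 3 it gave 358.

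The threshold cut through a continuous range. The members just inside it were the Brix-domain rRNA processing gene AT1G52930, whose smaller ratio was 1.8009, the mitochondrial carrier gene AT3G53940 at 1.8016 and the pentatricopeptide repeat (PPR) gene AT4G14170, also named MEF32, at 1.8045. Just outside were the ubiquitin-conjugating enzyme gene UBC17 at 1.7993, AT2G39240, annotated as the RNA polymerase I initiation factor RRN3, at 1.7985, and AT2G43110, annotated as a subunit of the U3-containing pre-ribosomal complex, at 1.7958. Of the 3 genes just outside, AT2G39240 and AT2G43110 are thus also annotated to ribosome synthesis.

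Nucleolus, rRNA processing and ribosomal proteins gave 24 members. By mean level, 23 of these genes were lower in SUC2:CO than in 35S:CO, as were 114 of all 155 members. The 19 nucleolar and rRNA processing members summed to 344, 258 and 417 CPM in 35S:CO, 275, 177 and 183 CPM in SUC2:CO, and 805, 489 and 651 CPM in Col-0. The median ratio of the Col-0 mean to the line's mean was 1.89 for 35S:CO and 2.92 for SUC2:CO. The 5 ribosomal protein members summed to 124, 79.8 and 144 CPM in 35S:CO, 88.6, 59.8 and 60.1 CPM in SUC2:CO, and 274, 175 and 192 CPM in Col-0. They were grouped by family name, and RFC3 had the highest Col-0 mean among them, 105 CPM. Only 3 members in all are annotated to the cytosolic ribosome, so not all of these 5 are. Col-0 replicate 2, the lowest Col-0 sample, stood above 35S:CO replicate 3, the highest line sample, in both sums, which the rule fixes for any sum of members. Col-0 replicate 1 was highest and Col-0 replicate 2 lowest of Col-0 in 23 of the 24 members each, so these genes moved as a block within genotypes too.

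A promoter feature known from ribosome genes was also seen here. The telo-box, searched as AAACCCTA on both strands from 250 bases before to 50 after the annotated start, was present in 11 of the 24 promoters (45.8%), against 9.09% of the promoters of 121 other protein-coding members and 6.22% of the promoters of all 27443 protein-coding genes searched. Among 428 promoters of genes annotated to ribosome assembly or the nucleolus, 107 held it. In 4 of the 24 members it lay within 150 bases before the start. Those 150 bases are shown from RefSeq TAIR10.1, read 5′ to 3′ along the gene, with the telo-box (TAGGGTTT where it lies on the other strand) and any site II element (TGGGCC or its complement GGCCCA) in capitals.
AT5G27120 (chr5:9540711-9540860, plus strand): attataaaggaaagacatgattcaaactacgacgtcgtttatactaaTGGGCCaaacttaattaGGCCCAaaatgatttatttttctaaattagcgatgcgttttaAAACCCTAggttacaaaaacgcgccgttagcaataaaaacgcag
AT4G12600 (chr4:7453046-7453195, plus strand): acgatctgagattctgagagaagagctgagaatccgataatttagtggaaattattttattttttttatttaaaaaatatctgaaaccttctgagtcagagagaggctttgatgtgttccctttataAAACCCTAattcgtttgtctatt
AT2G34260 (chr2:14465366-14465515, plus strand): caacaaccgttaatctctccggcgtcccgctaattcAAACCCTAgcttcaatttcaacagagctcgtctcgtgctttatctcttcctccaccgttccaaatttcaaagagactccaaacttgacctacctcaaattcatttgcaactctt
AT5G59240 (chr5:23903768-23903917, minus strand): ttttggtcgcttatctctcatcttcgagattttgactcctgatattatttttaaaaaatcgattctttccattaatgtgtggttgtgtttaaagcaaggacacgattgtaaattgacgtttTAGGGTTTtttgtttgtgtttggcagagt

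The telo-box ended 36 bases before the start in AT5G27120, 15 bases in AT4G12600, 106 bases in AT2G34260 and 21 bases in AT5G59240. AT5G27120 also had 2 site II elements, 1 on each strand. AT5G27120 encodes a NOP56-like protein, a core protein of the small nucleolar particles that methylate rRNA, and had 46.5, 31.0 and 58.1 CPM in 35S:CO, 27.8, 15.7 and 16.4 CPM in SUC2:CO, and 114, 62.2 and 89.5 CPM in Col-0. AT4G12600, whose product belongs to the L7Ae family and carries a domain of the pseudouridylation particle subunit NHP2, had 47.5, 31.5 and 56.0 CPM in 35S:CO, 35.7, 26.1 and 23.1 CPM in SUC2:CO, and 101, 70.9 and 89.2 CPM in Col-0. The SUC2:CO samples lay below those of 35S:CO for the first of these genes, whereas for AT4G12600 the highest SUC2:CO sample lay above the lowest 35S:CO sample. WDR55 (AT2G34260), a WD40 repeat gene, had 6.0002, 5.07 and 7.26 CPM in 35S:CO, 5.46, 4.61 and 4.24 CPM in SUC2:CO, and 13.2, 8.80 and 11.3 CPM in Col-0. AT5G59240, 1 of several S8e ribosomal protein genes, had 0.803, 0.915 and 1.21 CPM in 35S:CO, 0.423, 0.384 and 0.638 CPM in SUC2:CO, and 2.25, 1.799 and 1.52 CPM in Col-0, at few counts in every sample.

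Among the other motifs, site II (TGGGCC) was found in 9 of 24 promoters (37.5%), against 15.7% of the other members' promoters and 15.5% of all promoters. The share was 44.9% in promoters of genes annotated to ribosome assembly or the nucleolus. In the 16821 promoters of genes with a Col-0 mean of at least 1 CPM, which every member has, it was 20.7%. All 145 member promoters together had 19.3%. This motif was added after the members were seen. The evening element AAAATATCT, bound by clock MYB proteins, was found in 5 of 145 member promoters (3.45%) and 2.82% of all promoters. The related CCA1 site AAAAATCT was found in 4.14% of member promoters and 7.88% of all. The CO-responsive element TGTGNNATG was found in 2.07% of member promoters and 3.96% of all, and its form with a gap wider by 1 base in 6.21% and 4.90%. The CCAAT box, which CO-containing NF-Y complexes are known to contact, was found in 45.5% and 51.6%. The G-box CACGTG was found in 8.28% of member promoters and 7.68% of all, the ABRE ACGTGNC, which can overlap a G-box, in 8.28% and 10.3%, the W-box TTGACC in 13.8% and 14.2%, and TATAAA in 55.9% and 52.1%. In the 16821 promoters of genes at 1 CPM or more in Col-0, the CCAAT box share was 54.2%, the ABRE 11.8% and the G-box 8.94%. The telo-box share there was 5.79%. A match is a run of letters and not a shown binding site.

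**Figure D2:**
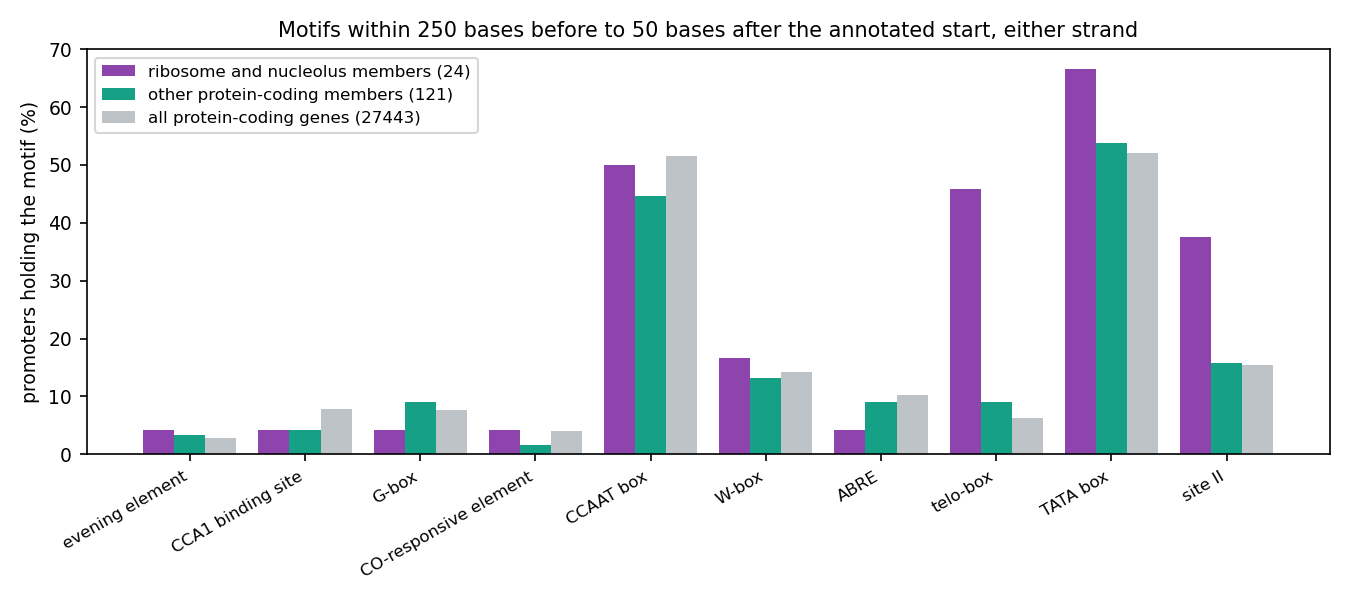
The share of promoters (percent, from 250 bases before to 50 after the start) that hold each motif is drawn for the 24 nucleolar and ribosomal members, the 121 other protein-coding members and all 27443 protein-coding genes. The telo-box stands at 45.8%, 9.09% and 6.22%, and site II at 37.5%, 15.7% and 15.5%.

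Machinery for transcribing and folding the rRNA precursor was among the members. NRPA2, the second-largest subunit of RNA polymerase I, had 23.2, 20.9 and 30.8 CPM in 35S:CO, 26.3, 19.2 and 21.3 CPM in SUC2:CO, and 53.9, 35.9 and 50.003 CPM in Col-0. AT1G67120, annotated as midasin-like, a large ATPase that in yeast strips assembly factors from the pre-60S particle, had 24.04, 22.7 and 25.6 CPM in 35S:CO, 28.7, 14.4 and 17.5 CPM in SUC2:CO, and 60.1, 30.4 and 41.6 CPM in Col-0. In both, the samples of the lines overlapped. SWA1, a nucleolar WD40 protein of 18S rRNA maturation, had 15.1, 12.1 and 17.6 CPM in 35S:CO, 10.96, 6.80 and 7.997 CPM in SUC2:CO, and 32.8, 24.3 and 25.5 CPM in Col-0. HDA3, a plant-specific nucleolar histone deacetylase also called HDT1, had 35.1, 24.4 and 46.7 CPM in 35S:CO, 21.8, 14.2 and 14.2 CPM in SUC2:CO, and 94.3, 53.2 and 68.7 CPM in Col-0. The related HDT4 had 21.5, 17.0 and 24.8 CPM in 35S:CO, 10.5, 9.33 and 7.51 CPM in SUC2:CO, and 51.2, 29.2 and 38.3 CPM in Col-0. SUC2:CO lay below 35S:CO without overlap in HDA3, HDT4 and SWA1. AT1G52930, whose yeast counterpart acts in large-subunit assembly, had 16.3, 12.3 and 21.5 CPM in 35S:CO, 11.6, 8.06 and 8.18 CPM in SUC2:CO, and 33.2, 24.5 and 32.6 CPM in Col-0. Among the ribosomal protein members, RFC3, annotated to a family of elongation factor EF1B and ribosomal protein S6, had 62.5, 39.2 and 71.0 CPM in 35S:CO, 46.3, 30.1 and 34.4 CPM in SUC2:CO, and 134, 85.3 and 95.9 CPM in Col-0. AT4G10450, of the L6 family, had 24.6, 16.9 and 28.9 CPM in 35S:CO, 15.2, 11.1 and 9.46 CPM in SUC2:CO, and 55.7, 36.9 and 39.2 CPM in Col-0. Ribosomal protein genes come in near-identical copies, so reads may have been split between them in counting.

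Ribosome genes outside the set were lower more often than higher in both lines, and in SUC2:CO most were lower. Here a gene is called where the adjusted p of edgeR's quasi-likelihood test is under 0.05. Of all 19149 genes tested, 11.8% were called in 35S:CO against Col-0 (5.48% lower, 6.32% higher) and 32.3% in SUC2:CO against Col-0 (16.8% lower, 15.5% higher), and the medians of the log2 differences were -0.040 and -0.018. Genes lower in 35S:CO numbered 1050, and 1592 when the replicate number was a block. Of 444 other tested genes annotated to ribosome assembly or the nucleolus, 105 were lower and 4 higher in 35S:CO (193 lower and 5 higher with the replicate number as a block), and 308 were lower and 11 higher in SUC2:CO. Their median log2 differences were -0.40 and -0.73. Of 211 other cytosolic ribosome genes, 68 were lower and 3 higher in 35S:CO (136 and 4 with the block), with a median of -0.53, and 185 were lower and 4 higher in SUC2:CO, with a median of -1.28. Both lists came from the annotation and were chosen after the members had been seen. They hold genes in common, so the 2 sets of counts are not independent. The 2 comparisons share the Col-0 samples.

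Mitochondrial and plastid functions gave 26 members, 8 of them PPR genes, whose proteins bind and process organelle RNA. They summed to 193, 147 and 204 CPM in 35S:CO, 194, 146 and 151 CPM in SUC2:CO, and 426, 307 and 321 CPM in Col-0. Replicate 2 of 35S:CO and replicates 2 and 3 of SUC2:CO were nearly level in this sum, and by the rule all line samples lay below the lowest Col-0 sample. PDE340 (pigment defective), a P-loop NTPase gene, had 72.6, 44.2 and 84.97 CPM in 35S:CO, 75.9, 53.3 and 55.7 CPM in SUC2:CO, and 167, 99.0 and 122 CPM in Col-0. AT2G27402, annotated as plastid transcriptionally active, had 42.7, 34.1 and 27.4 CPM in 35S:CO, 39.7, 32.6 and 32.0 CPM in SUC2:CO, and 68.9, 74.2 and 50.3 CPM in Col-0. AT5G15700, which encodes a nucleus-encoded RNA polymerase of mitochondria and chloroplasts, had 4.78, 5.72 and 6.21 CPM in 35S:CO, 7.26, 4.72 and 4.92 CPM in SUC2:CO, and 11.7, 8.57 and 10.7 CPM in Col-0. In all 3 the samples of the lines overlapped. Import and assembly genes were also among the members, and a value after ± is here the SD over the 3 samples of a genotype (n = 3) unless an SE is named. TOM7-2, a small subunit of the outer membrane translocase, had 1.71 ± 0.559 CPM in 35S:CO, 1.06 ± 0.222 in SUC2:CO and 4.22 ± 2.25 in Col-0, and MEE67, of the inner membrane import family, had 2.57 ± 0.737 CPM in 35S:CO, 1.63 ± 0.691 in SUC2:CO and 5.44 ± 1.27 in Col-0. The Col-0 samples of TOM7-2 were widely spread. RUG3, needed for complex I in mitochondria, averaged 2.99 ± 0.924 CPM in 35S:CO, 2.43 ± 0.126 in SUC2:CO and 6.11 ± 0.924 in Col-0. AT2G41670 (SIN2), a mitochondrial GTPase gene, averaged 2.59 ± 0.536 CPM in 35S:CO, 2.70 ± 0.484 in SUC2:CO and 4.96 ± 1.08 in Col-0. The PPR gene LOJ had 0.382, 0.420 and 0.468 CPM in 35S:CO, 0.231, 0.0768 and 0 CPM in SUC2:CO, and 1.03, 0.782 and 1.29 CPM in Col-0. The SUC2:CO samples of LOJ lay below those of 35S:CO. Outside the set, of 453 other PPR genes tested, 27 were lower and 1 higher in 35S:CO (46 lower with the block), and 94 were lower and 8 higher in SUC2:CO, with median log2 differences of -0.31 and -0.34. Of 31 other mitochondrial import genes, 7 were lower and 0 higher in 35S:CO (10 lower with the block), and 19 were lower and 1 higher in SUC2:CO. These lists too were chosen after the members had been seen.

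**Figure D3:**
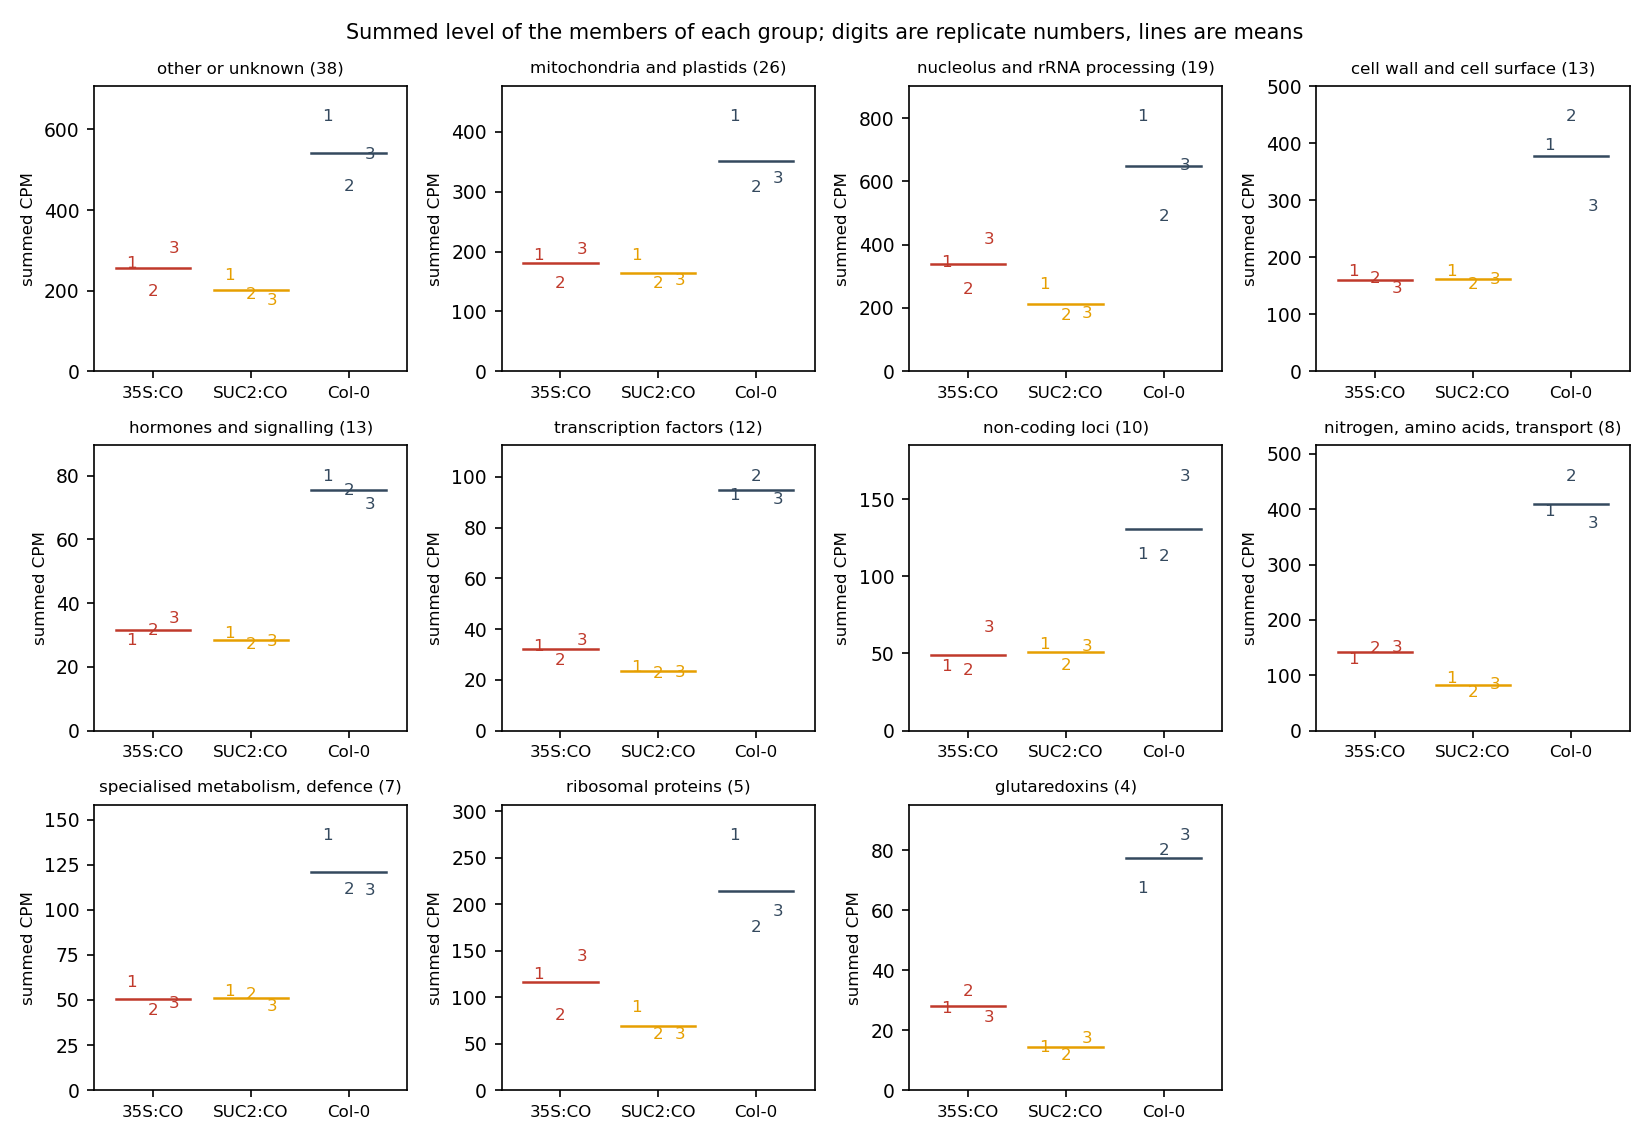
Summed CPM of the members of each role is drawn for every sample, with digits for replicate numbers and lines for genotype means. In the nucleolar group 35S:CO lies at 258 to 417, SUC2:CO at 177 to 275 and Col-0 at 489 to 805.

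Of 10 non-coding members, 4 were small nucleolar RNA loci. Among them, AT4G06705 averaged 0.884 CPM in 35S:CO, 0.661 in SUC2:CO and 1.83 in Col-0. It overlaps the protein-coding AT4G17390 on the same strand, which averaged 199, 110 and 315 CPM in that order, so its counts are uncertain. AT2G04955, annotated as U65-2, had 3.32, 2.25 and 3.67 CPM in 35S:CO, 1.92, 1.54 and 1.09 CPM in SUC2:CO, and 6.56, 5.20 and 5.32 CPM in Col-0, and its neighbour AT2G04965, annotated as U49-2, had 3.02, 2.75 and 3.82 CPM in 35S:CO, 1.65, 1.57 and 1.88 CPM in SUC2:CO, and 5.26, 6.30 and 7.34 CPM in Col-0. These loci lie 1 gene apart on chromosome 2, between 2184672 and 2185087 (TAIR10.1), and both had lower values in SUC2:CO than in 35S:CO in all samples. A second cluster of 4 loci lies on chromosome 3 between 14196558 and 14200076. AT3G06355, a long non-coding locus that overlaps the 5.8S rRNA gene AT3G41979, had 17.4, 18.001 and 30.8 CPM in 35S:CO, 28.1, 21.0 and 26.7 CPM in SUC2:CO, and 54.0, 52.9 and 78.9 CPM in Col-0. AT3G41979 had 5.35, 7.09 and 10.8 CPM in 35S:CO, 12.03, 9.56 and 13.2 CPM in SUC2:CO, and 26.6, 25.4 and 38.9 CPM in Col-0. In both of these loci the lines overlapped. The precursor locus of MIR5642a overlaps AT3G06325 and had 8.56, 6.41 and 13.4 CPM in 35S:CO, 9.30, 6.91 and 9.50 CPM in SUC2:CO, and 14.04, 15.3 and 24.7 CPM in Col-0. These rRNA-linked counts come from repeated sequence and overlapping loci and are uncertain.

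Members with the lowest levels relative to Col-0 were spread over several roles. AT1G64795, an uncharacterised locus, had 0.0764, 0.0381 and 0 CPM in 35S:CO, 0, 0.154 and 0 CPM in SUC2:CO, and 6.98, 6.85 and 9.58 CPM in Col-0, which in 35S:CO is 2, 1 and 0 counts. It lies on the plus strand at chr1:24082579-24082848 (TAIR10.1), inside ILA (AT1G64790, 24064822 to 24083428), a gene on the minus strand. ILA had 118, 113 and 123 CPM in 35S:CO, 123, 84.7 and 91.2 CPM in SUC2:CO, and 189, 121 and 145 CPM in Col-0. AMT1;2, an ammonium transporter gene 2 loci from AT1G64795, lies beyond ILA and was called higher, with log2 differences from Col-0 of 1.92 ± 0.20 in 35S:CO (SE, adjusted p = 1.4e-04) and 1.41 ± 0.19 in SUC2:CO (SE, adjusted p = 7.8e-04). The next locus on the other side, AT1G64800, had 0.115, 0 and 0.0390 CPM in 35S:CO, 0, 0 and 0 CPM in SUC2:CO, and 0, 0 and 0 CPM in Col-0. ILA and AMT1;2 thus kept counts in every sample, while AT1G64800 was at or near 0 in all 3 genotypes. JAZ7, a repressor gene of jasmonate signalling, had 0.0382, 0 and 0 CPM in 35S:CO, 0.0384, 0 and 0.0375 CPM in SUC2:CO, and 2.10, 0.313 and 0.951 CPM in Col-0, with at most 1 count per sample in either line. AT2G04050, of the MATE efflux family, had 0.0764, 0 and 0.0781 CPM in 35S:CO, 0.154, 0.0768 and 0.300 CPM in SUC2:CO, and 0.572, 1.06 and 3.76 CPM in Col-0. AT5G18840, of the major facilitator family, had 0.229, 0.153 and 0.0390 CPM in 35S:CO, 0.115, 0.0768 and 0.150 CPM in SUC2:CO, and 1.30, 2.15 and 0.760 CPM in Col-0. It overlaps AT5G18850 on the same strand, which averaged 9.60, 15.8 and 12.3 CPM in that order, so its counts are uncertain. At the low counts of these members in the lines no ratio is given.

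**Figure D4:**
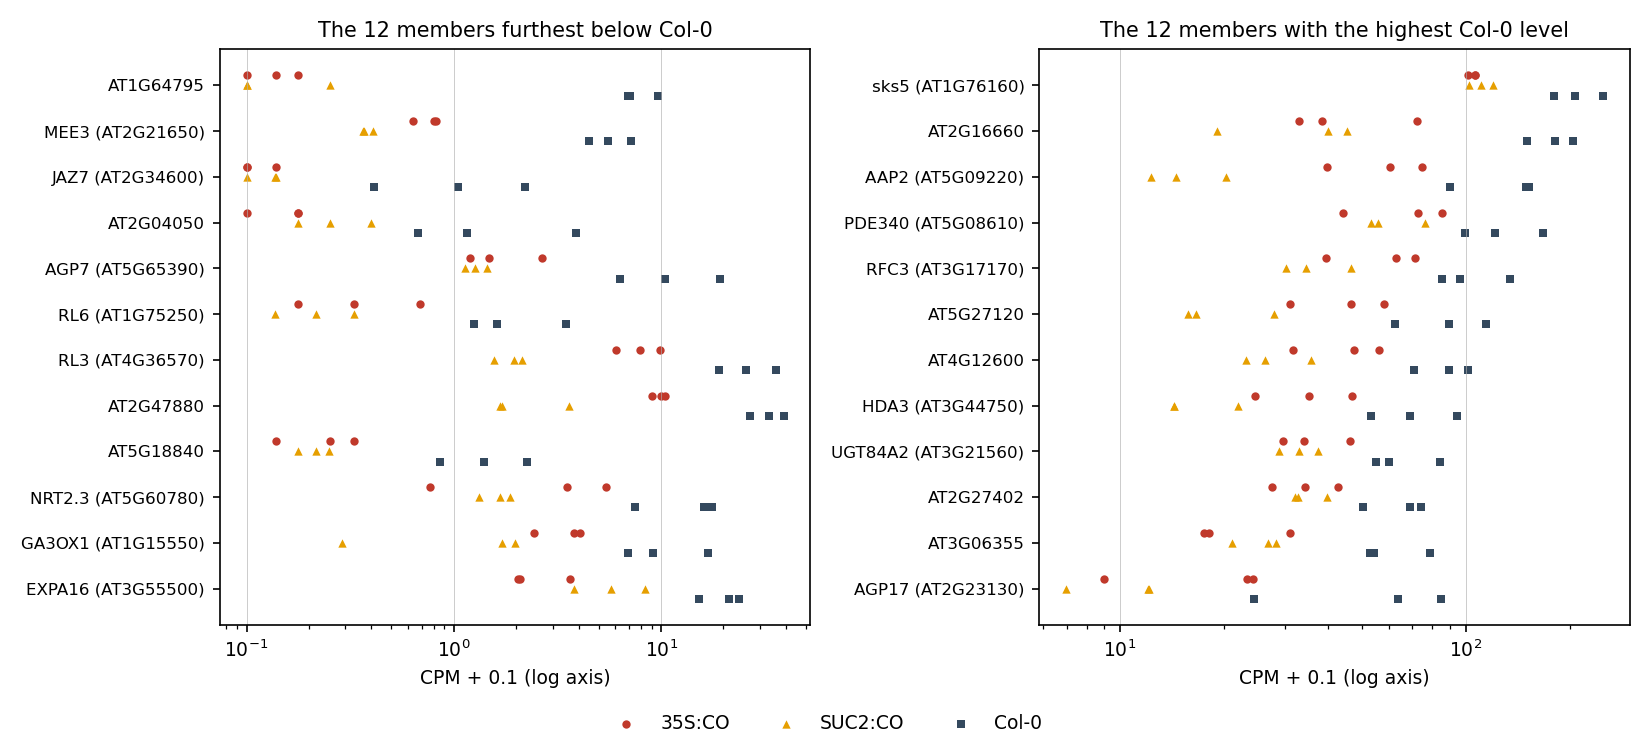
CPM plus 0.1 on a log axis is drawn for the 3 samples of 35S:CO, SUC2:CO and Col-0, for the 12 members furthest below Col-0 and the 12 with the highest Col-0 level. In every one the Col-0 points lie above those of both lines, as the rule requires, and AT1G64795 lies near the floor in both lines.

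Transcription factor genes gave 12 members, 3 of them of the RADIALIS-like single-MYB type. RL3 had 7.83, 9.73 and 5.93 CPM in 35S:CO, 1.46, 1.84 and 2.03 CPM in SUC2:CO, and 18.9, 35.6 and 25.7 CPM in Col-0. MEE3, also called RSM1 and linked to early morphogenesis in its annotation, had 0.535, 0.725 and 0.703 CPM in 35S:CO, 0.269, 0.307 and 0.263 CPM in SUC2:CO, and 5.42, 7.04 and 4.41 CPM in Col-0. RL6 had 0.229, 0.0763 and 0.585 CPM in 35S:CO, 0.231, 0.115 and 0.0375 CPM in SUC2:CO, and 1.14, 3.36 and 1.52 CPM in Col-0. In RL3 and MEE3 all SUC2:CO samples lay below all 35S:CO samples, and in RL6 the lines overlapped. Light signalling was represented by HY5, the bZIP factor that promotes light growth and is degraded through COP1, with 2.56, 2.90 and 5.15 CPM in 35S:CO, 5.30, 3.69 and 4.81 CPM in SUC2:CO, and 9.16, 6.73 and 11.3 CPM in Col-0. BZS1, a B-box gene also known as BBX20, had 1.57, 0.877 and 2.22 CPM in 35S:CO, 0.884, 1.11 and 0.901 CPM in SUC2:CO, and 4.35, 2.31 and 2.66 CPM in Col-0. MYB111, an activator of flavonol synthesis genes, had 4.20, 2.48 and 5.23 CPM in 35S:CO, 3.11, 2.69 and 1.76 CPM in SUC2:CO, and 16.4, 15.2 and 6.92 CPM in Col-0. The Col-0 samples of MYB111 were far apart, with replicate 3 the lowest. AGL15, a MADS-box gene known from embryos, had 1.53, 0.839 and 1.64 CPM in 35S:CO, 1.04, 0.883 and 0.976 CPM in SUC2:CO, and 3.59, 1.96 and 4.98 CPM in Col-0. The lines overlapped in HY5, BZS1, MYB111 and AGL15. The AP2/ERF gene DREB26 averaged 2.56 ± 0.174 CPM in 35S:CO, 1.49 ± 0.797 in SUC2:CO and 5.25 ± 2.30 in Col-0, and ESE3, of the same family, averaged 1.09 ± 0.533 CPM in 35S:CO, 1.11 ± 0.281 in SUC2:CO and 3.36 ± 1.57 in Col-0.

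Glutaredoxins gave 4 members, all of the plant-specific class by annotation. AT2G47880 had 8.98, 10.3 and 9.87 CPM in 35S:CO, 3.50, 1.61 and 1.58 CPM in SUC2:CO, and 26.8, 33.1 and 38.9 CPM in Col-0. AT4G15660 had 10.4, 11.1 and 7.06 CPM in 35S:CO, 3.34, 2.07 and 4.17 CPM in SUC2:CO, and 18.1, 20.5 and 21.5 CPM in Col-0. AT3G62930 had 5.39, 9.27 and 5.78 CPM in 35S:CO, 2.46, 3.42 and 4.17 CPM in SUC2:CO, and 10.07, 12.5 and 14.9 CPM in Col-0. In these 3 the SUC2:CO samples were lowest and the 35S:CO samples lay between them and Col-0 without overlap. AT2G30540 had the opposite order, with 2.37, 2.25 and 1.56 CPM in 35S:CO, 4.88, 4.38 and 7.32 CPM in SUC2:CO, and 12.3, 13.97 and 9.66 CPM in Col-0. The class has 21 genes, of which 20 were tested. Of the 16 tested genes that are not members, 1 was lower and 2 higher in 35S:CO than in Col-0, and 7 were lower and 4 higher in SUC2:CO than in Col-0. AT4G15660 lies in a row of near-identical genes, whose counts may be shared. Of its neighbours, AT4G15670 averaged 6.84 ± 1.21 CPM in 35S:CO, 1.68 ± 0.420 in SUC2:CO and 11.4 ± 2.98 in Col-0, and AT4G15680 averaged 24.6 ± 1.32 CPM in 35S:CO, 7.45 ± 1.18 in SUC2:CO and 38.4 ± 6.87 in Col-0. The class was picked out after its values had been seen.

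Nitrogen, amino acid and transport genes gave 8 members. AAP2, an amino acid permease of the vasculature, had 60.1, 74.6 and 39.6 CPM in 35S:CO, 12.2, 20.1 and 14.4 CPM in SUC2:CO, and 89.9, 152 and 149 CPM in Col-0. The SUC2:CO samples lay far below those of 35S:CO, and these below Col-0. AT2G16660, of the major facilitator family, had 32.9, 38.4 and 72.1 CPM in 35S:CO, 45.2, 19.0 and 39.8 CPM in SUC2:CO, and 181, 204 and 151 CPM in Col-0. NRT2.3, a nitrate transporter gene, had 3.40, 5.34 and 0.663 CPM in 35S:CO, 1.77, 1.23 and 1.58 CPM in SUC2:CO, and 17.6, 15.9 and 7.38 CPM in Col-0, with 35S:CO replicate 3 below all SUC2:CO samples. ERD5, which encodes a proline-degrading dehydrogenase, averaged 14.3 ± 1.86 CPM in 35S:CO, 12.6 ± 0.379 in SUC2:CO and 33.5 ± 13.2 in Col-0. ACR4, an ACT-domain gene of amino acid regulation, averaged 9.68 ± 1.99 CPM in 35S:CO, 10.2 ± 1.14 in SUC2:CO and 30.1 ± 11.02 in Col-0. The median ratio of the Col-0 mean to the line's mean was 3.43 for 35S:CO and 6.77 for SUC2:CO. These medians take in AT2G04050 and AT5G18840, whose counts in the lines were too low for a ratio of their own.

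Cell wall and surface proteins gave 13 members. The SKU5-like surface protein gene sks5 had 106, 106 and 101 CPM in 35S:CO, 119, 102 and 111 CPM in SUC2:CO, and 207, 249 and 179.8 CPM in Col-0. The 6 samples of the lines were nearly level and the Col-0 samples were higher. AGP17, an arabinogalactan protein gene, had 24.1, 23.3 and 8.90 CPM in 35S:CO, 11.9, 6.87 and 12.01 CPM in SUC2:CO, and 63.5, 84.9 and 24.3 CPM in Col-0, and AGP7 had 1.38, 2.56 and 1.09 CPM in 35S:CO, 1.35, 1.04 and 1.16 CPM in SUC2:CO, and 10.3, 19.2 and 6.24 CPM in Col-0. In AGP17 Col-0 replicate 3 stood only just above the highest 35S:CO sample. EXPA16, an expansin that loosens walls in growing cells, had 3.52, 1.95 and 1.99 CPM in 35S:CO, 8.26, 5.64 and 3.72 CPM in SUC2:CO, and 21.1, 23.6 and 15.2 CPM in Col-0, with 35S:CO below SUC2:CO in every sample. UGE2, an epimerase that makes UDP-galactose, averaged 5.45 ± 0.526 CPM in 35S:CO, 4.77 ± 0.309 in SUC2:CO and 10.9 ± 1.95 in Col-0. RWP1, a feruloyl transferase of suberin synthesis, averaged 0.755 ± 0.243 CPM in 35S:CO, 0.868 ± 0.463 in SUC2:CO and 1.61 ± 0.244 in Col-0.

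Hormone and signalling genes gave 13 members, and specialised metabolism and defence gave 7. GA3OX1, whose enzyme makes bioactive gibberellin, had 3.71, 2.33 and 3.98 CPM in 35S:CO, 1.88, 1.61 and 0.188 CPM in SUC2:CO, and 16.8, 6.85 and 9.09 CPM in Col-0. The SUC2:CO samples lay below those of 35S:CO, with replicate 3 close to 0. SAUR41 (AT1G16510), of the small auxin-up RNA family, averaged 3.93 ± 1.53 CPM in 35S:CO, 3.87 ± 1.35 in SUC2:CO and 8.85 ± 2.35 in Col-0. SAUR29 of the same family averaged 0.474 ± 0.384 CPM in 35S:CO, 1.13 ± 0.236 in SUC2:CO and 2.11 ± 0.747 in Col-0. CLE26, a signalling peptide gene, averaged 2.16 ± 0.719 CPM in 35S:CO, 1.36 ± 0.168 in SUC2:CO and 4.73 ± 0.129 in Col-0, and ROPGEF7, an activator of ROP GTPases, averaged 4.50 ± 0.302 CPM in 35S:CO, 5.07 ± 0.497 in SUC2:CO and 9.46 ± 0.234 in Col-0. None of these genes was called between the lines. UGT84A2, a sinapate glucosyltransferase gene, had 46.2, 29.4 and 33.9 CPM in 35S:CO, 32.8, 37.2 and 28.8 CPM in SUC2:CO, and 84.2, 60.0 and 54.7 CPM in Col-0. AZI1, a lipid-transfer-like gene of systemic immunity, had 1.38, 2.86 and 3.24 CPM in 35S:CO, 2.92, 2.19 and 1.73 CPM in SUC2:CO, and 7.82, 8.88 and 15.5 CPM in Col-0. The lines overlapped in both. SMT3, a sterol methyltransferase gene, averaged 6.002 ± 0.642 CPM in 35S:CO, 7.09 ± 0.619 in SUC2:CO and 19.0 ± 9.36 in Col-0. AT5G05600, of the 2-oxoglutarate-dependent oxygenase family, had 2.71, 3.43 and 1.91 CPM in 35S:CO, 8.23, 4.19 and 5.82 CPM in SUC2:CO, and 16.5, 9.43 and 24.03 CPM in Col-0. In this gene all 35S:CO samples lay below all SUC2:CO samples.

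The remaining 38 members had other or unknown functions. AT5G05060, of the cystatin superfamily, had 18.2, 16.6 and 19.2 CPM in 35S:CO, 24.4, 27.4 and 22.9 CPM in SUC2:CO, and 49.0, 51.1 and 51.3 CPM in Col-0. Replicates agreed closely in each genotype and the 3 genotypes did not overlap. GRP4, a glycine-rich RNA-binding protein gene, had 9.48, 7.13 and 10.5 CPM in 35S:CO, 5.19, 3.38 and 2.48 CPM in SUC2:CO, and 21.2, 12.01 and 18.2 CPM in Col-0. AT5G06550 (JMJ22), a Jumonji-domain arginine demethylase gene linked to seed germination, averaged 4.86 ± 1.62 CPM in 35S:CO, 2.73 ± 0.428 in SUC2:CO and 9.81 ± 1.31 in Col-0. ROC2, a cyclophilin gene, averaged 17.6 ± 3.61 CPM in 35S:CO, 10.01 ± 2.29 in SUC2:CO and 32.4 ± 5.36 in Col-0. MBS1 (AT3G02790), a zinc finger gene named for methylene blue sensitivity, averaged 10.5 ± 2.59 CPM in 35S:CO, 9.59 ± 1.09 in SUC2:CO and 20.2 ± 2.29 in Col-0, and AT4G31290 (GGCT2;2), a gamma-glutamyl cyclotransferase gene, averaged 17.6 ± 7.71 CPM in 35S:CO, 14.3 ± 0.0855 in SUC2:CO and 34.9 ± 8.67 in Col-0.

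The rule did not use the difference between the lines, but it capped the level of each against the same Col-0 samples, with 35S:CO the condition fewer genes met. The shares over all genes are therefore given as background and not as a test of the set. Of 154 members tested, 24 (15.6%) were called between 35S:CO and SUC2:CO, against 18.8% of all genes. In 35S:CO 20 members (13.0%) were higher, against 9.27% of all genes, and 4 (2.6%) were lower, against 9.50%. The samples of the lines did not overlap in 29 members (18.8%) with 35S:CO higher and in 7 (4.55%) with 35S:CO lower, against 20.0% and 18.7% of all genes. The median log2 difference of members was 0.26, against 0.0060 over all genes. Among the called members, those higher in 35S:CO outnumbered those lower. The other 130 were not called, and at an unadjusted p under 0.05 the count was 46 members. The count of 24 fell to 15 without 35S:CO replicate 3, to 9 without SUC2:CO replicate 2 and to 13 without SUC2:CO replicate 3.

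Among called members, RL3 showed the largest difference, a log2 difference of 2.11 ± 0.31 (SE, adjusted p = 0.0016). AT2G47880 followed with a log2 difference of 2.10 ± 0.25 (SE, adjusted p = 4.4e-04), and AAP2 with a log2 difference of 1.88 ± 0.31 (SE, adjusted p = 0.0028). In each, 35S:CO was higher in all 3 samples. AT4G15660 had a log2 difference of 1.56 ± 0.25 (SE, adjusted p = 0.0027), AT3G62930 a log2 difference of 0.99 ± 0.27 (SE, adjusted p = 0.028), and GRP4 a log2 difference of 1.27 ± 0.26 (SE, adjusted p = 0.0087). MEE3 had a log2 difference of 1.18 ± 0.35 (SE, adjusted p = 0.041). Of the 4 members lower in 35S:CO, AT2G30540 had a log2 difference of -1.44 ± 0.28 (SE, adjusted p = 0.0066), EXPA16 a log2 difference of -1.26 ± 0.34 (SE, adjusted p = 0.030), AT5G05600 a log2 difference of -1.19 ± 0.34 (SE, adjusted p = 0.036) and AT5G05060 a log2 difference of -0.50 ± 0.11 (SE, adjusted p = 0.0099). All 4 glutaredoxin members were thus called, 3 higher and 1 lower, but AT3G62930 lost its call without 35S:CO replicate 2 or without SUC2:CO replicate 1 or 2 (adjusted p 0.065 to 0.090). Among the other 16 genes of that class 7 were higher and 2 lower in 35S:CO than in SUC2:CO.

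Ribosome genes supplied 8 of the 20 members higher in 35S:CO. In the nucleolar group 7 of 19 were higher and 0 lower, with a median log2 difference of 0.40. They were HDT4 (1.17), AT5G27120 (1.15), HDA3 (1.04), the WD40 gene AT4G04940 (0.95), AT1G52930 (0.81), AT1G02870 (0.77) and SWA1 (0.77), with adjusted p from 0.0035 to 0.020 by edgeR's quasi-likelihood test. The number was 3 without 35S:CO replicate 3 and 1 without SUC2:CO replicate 2 or replicate 3. Of the 5 ribosomal protein members AT4G10450 was higher, a log2 difference of 0.94 ± 0.22 (SE, adjusted p = 0.016). Both small nucleolar neighbours AT2G04955 and AT2G04965 were higher as well, by 0.99 and 0.87. AT4G10450 and AT2G04955 each lost their call in 4 runs that left out 1 sample, without 35S:CO replicate 1 or 3 and without SUC2:CO replicate 2 or 3 (adjusted p 0.050 to 0.070 and 0.058 to 0.082 by edgeR). Outside the set, 157 of 444 genes of ribosome assembly and the nucleolus were higher and 10 lower in 35S:CO, with a median of 0.38. Of 211 cytosolic ribosome genes, 167 were higher and 1 lower, with a median of 0.74, and this list shares genes with the first. Of the 26 mitochondrial and plastid members 0 were called, with a median of 0.18. Of 12 tested hormone and signalling members 0 were called, with a median of 0.076. The share called over all genes was 18.8%.

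**Figure D5:**
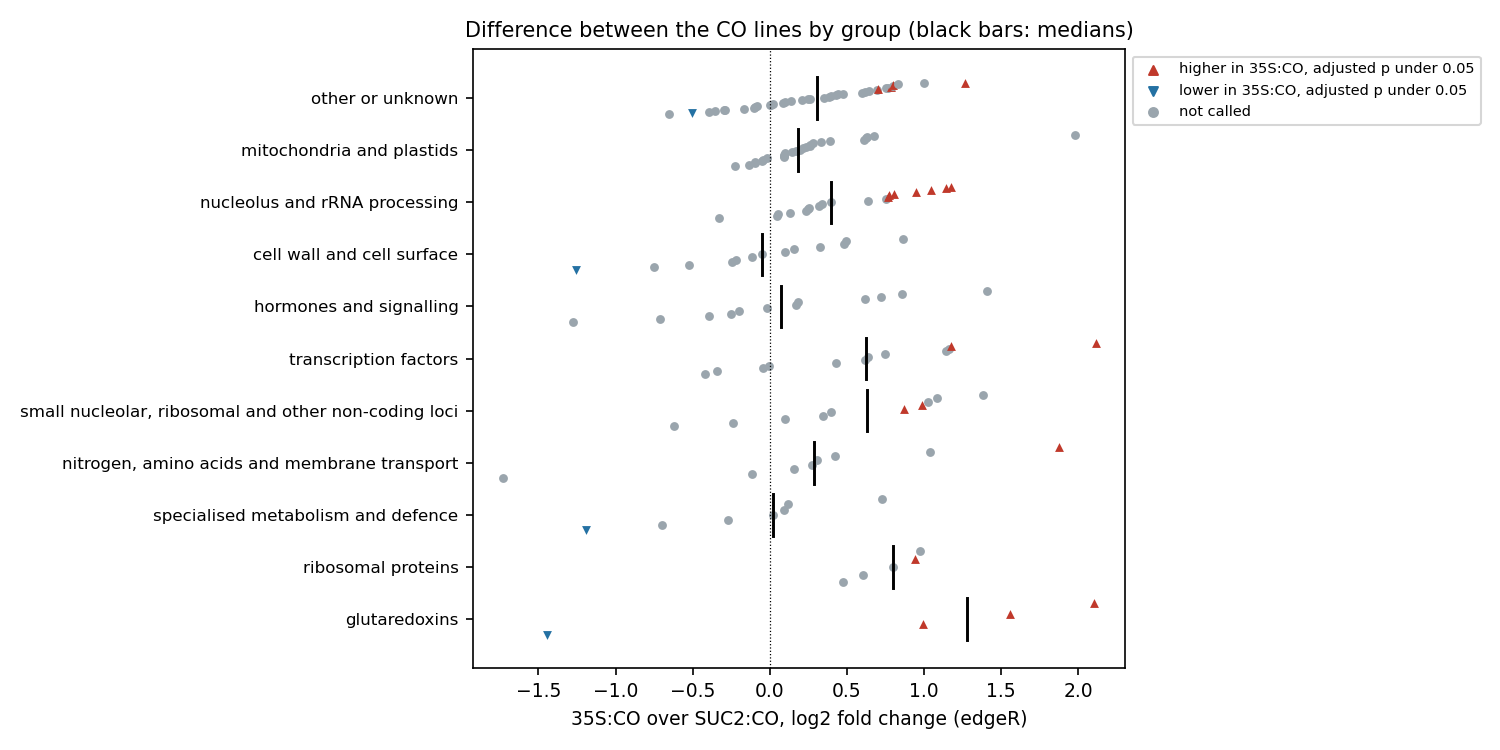
The log2 difference between 35S:CO and SUC2:CO of each tested member is drawn by role, with the median of each role and the call by colour. The nucleolar members lie mostly above 0 with a median of 0.40, and the mitochondrial and plastid members around 0.18.

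Of 12 pathway lists of textbook genes, 4 hold a member each. Their other genes are set against the shares called over all genes given above. The values are log2 differences from Col-0. Of nitrate and ammonium genes, 23 were tested. In 35S:CO 0 were lower and 4 higher (7 higher with the replicate number as a block), with a median log2 difference of 0.17, and in SUC2:CO 0 were lower and 8 higher, with a median of 0.25. The nitrate transporter member NRT2.3 was low while no other gene of this list was called lower. The list does not hold the 2 loci that the rule leaves out, and NRT2.2, NRT2.4, NRT2.5 and NRT2.6 stayed under 1 CPM and were not tested. NRT2.3 is thus not shown to be the only nitrate uptake gene with a lower level. The nitrogen regulator LBD37 had 0.87 ± 0.13 in 35S:CO (SE, adjusted p = 0.0017) and 0.39 ± 0.13 in SUC2:CO (SE, adjusted p = 0.039). Of flavonoid genes, the pathway MYB111 acts in, 13 were tested. In 35S:CO 0 were lower and 0 higher (1 higher with the replicate number as a block), with a median log2 difference of 0.54, and in SUC2:CO 12 were lower and 0 higher, with a median of -2.47. The list's 15 genes summed to 1231, 475 and 766 CPM in 35S:CO and 939, 259 and 429 CPM in Col-0. With samples this far apart, a difference in 35S:CO may have gone uncalled. Between the lines, 11 of these flavonoid genes were higher and 0 lower in 35S:CO, with a median log2 difference of 2.69, while MYB111 itself was not called between the lines (0.61 ± 0.39 SE, adjusted p = 0.30). Of jasmonate genes, 14 were tested. In 35S:CO 3 were lower and 2 higher, with a median log2 difference of 0.013, and in SUC2:CO 4 were lower and 3 higher, with a median of 0.33. JAZ1, a repressor like the member JAZ7, had -1.0 ± 0.27 in 35S:CO (SE, adjusted p = 0.038) and -1.07 ± 0.27 in SUC2:CO (SE, adjusted p = 0.014). JAZ5 had -2.03 ± 0.50 in 35S:CO (SE, adjusted p = 0.026) and -1.87 ± 0.49 in SUC2:CO (SE, adjusted p = 0.016). Of the other repressors of this family on the list, JAZ10 had -1.24 ± 0.45 in 35S:CO (SE, adjusted p = 0.10) and -2.57 ± 0.49 in SUC2:CO (SE, adjusted p = 0.0037). TIFY10B, also known as JAZ2, had 0.025 ± 0.12 in 35S:CO (SE, adjusted p = 0.93) and -0.43 ± 0.12 in SUC2:CO (SE, adjusted p = 0.023). Both were thus lower in SUC2:CO and not called in 35S:CO. By contrast the jasmonate-induced CORI3 was higher, at 1.07 ± 0.27 in 35S:CO (SE, adjusted p = 0.028) and 1.88 ± 0.27 in SUC2:CO (SE, adjusted p = 9.7e-04). Of expansins, 11 were tested. In 35S:CO 0 were lower and 1 higher (1 lower with the replicate number as a block), with a median log2 difference of -0.19, and in SUC2:CO 3 were lower and 1 higher, with a median of -0.28. The other 8 lists, among them the circadian clock that the series title names, hold no member.

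Counting limits some members more than others. Of the 155, 47 overlap another annotated locus and 8 of these overlap one on the same strand. The libraries were strand-specific per the labels, but the sources used here do not say whether counting used the strand. AGL15 and AT5G13830, an FtsJ-like methyltransferase gene, lie within 5 loci of each other on chromosome 5, as do AT5G61412 and the thioredoxin gene ACHT5.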

How the data were processed

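RNA of 9 seedling samples had been sequenced from strand-specific libraries, per the labels' protocols. The authors deposited raw gene counts without normalization. The submitters' processing notes name FastQC, STAR, featureCounts, limma and TAIR10, with no versions or settings. Of 32833 genes, 32548 matched RefSeq TAIR10.1, which gave names, positions and promoters, and 285 did not. The totals of 25563118 to 26636174 counts make 3 counts the smallest level relied on, and this floor covers counting error only.

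CPM is the count divided by the column total, times 1000000. The tests used edgeR 4.0.16 in R 4.3.3 (filterByExpr, TMM scaling, quasi-likelihood F-tests, two-sided, on all 9 samples with a term per genotype), with Benjamini-Hochberg adjustment over 19149 genes and a threshold of 0.05. Alternatives were DESeq2 1.42.0, limma-voom (limma 3.58.1), other scalings and filters, a replicate block, leaving out each sample, and other membership thresholds. The fits were tested on simulated data. Same-numbered samples deviated together in 35S:CO and Col-0 (correlations 0.44, 0.30 and 0.25) but not in the other pairs of genotypes (-0.11 to 0.12), so the block is printed beside results of 35S:CO against Col-0 at least where it moves a count by over 1.5 times. The numbers come from the sample titles.

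Named members were the 12 furthest below Col-0, the 12 with the highest Col-0 mean, the 6 with the largest called difference between the lines in each direction, those on a pathway list, with another member among the 5 nearest loci on either side or sharing a product name, and those nearest the threshold. Others were named for their role after their values were seen. The roles were assigned by hand from the annotation. The members and lists were chosen with earlier results of these data known.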

Additional observations from a re-analysis of the deposited data

Results flagged for a closer look

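The members below differed between the CO lines by a test of the difference itself, edgeR's quasi-likelihood test of 35S:CO against SUC2:CO with adjustment over all genes, and are given as log2 differences. RL3 differed by 2.11, the glutaredoxin gene AT2G47880 by 2.10, AAP2 by 1.88, the glutaredoxin gene AT4G15660 by 1.56, GRP4 by 1.27 and MEE3 by 1.18, all higher in 35S:CO in 3 of 3 samples than in any SUC2:CO sample. The glutaredoxin gene AT2G30540 differed by -1.44, EXPA16 by -1.26, the oxygenase gene AT5G05600 by -1.19 and AT5G05060 by -0.50, all lower in 35S:CO in 3 of 3 samples than in any SUC2:CO sample. RL3, AT2G47880, AAP2, AT4G15660, GRP4 and AT2G30540 kept their call in every alternative run with an adjusted p under 0.05. MEE3 lost its call in 9 alternatives, including DESeq2 (adjusted p = 0.056) and limma-voom (adjusted p = 0.23). EXPA16 lost it with limma-voom and without 35S:CO replicate 2 or 3 or SUC2:CO replicate 1 or 2, AT5G05600 with limma-voom, with library totals and without 35S:CO replicate 1 or 3 or SUC2:CO replicate 1 or 3, and AT5G05060 without SUC2:CO replicate 2.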

How the results depend on the processing

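The number of members depends most on the thresholds that define them. It was 155 with the 1.8-fold rule, 562 with a ratio of 1.5, 80 with a ratio of 2, 102 with a Col-0 mean of at least 5 CPM and 266 with no minimum level. Leaving out 1 sample at a time gave 115 to 412, with 412 without Col-0 replicate 2, of which 152 were among the 155, and 358 without 35S:CO replicate 3, of which 149 were. The 24 members called between the lines became 8 at an adjusted p under 0.01 and 9 to 30 when 1 sample was left out, with 9 of the 24 kept without SUC2:CO replicate 2. The replicate block gave 35 members, which include all 24, although the numbers do not pair these lines. DESeq2 gave 32, of which 23 were among the 24, and limma-voom 21, of which 20 were. Over all genes, 35S:CO against Col-0 gave 2261 calls, 1260 with a fit of only the compared genotypes, 925 at an adjusted p under 0.01, 1159 to 2167 when 1 sample was left out, and 3033 with the replicate block. SUC2:CO against Col-0 gave 6176, 3012 at 0.01, 3572 to 6615 when 1 was left out and 6902 with the block. 35S:CO against SUC2:CO gave 3595, 1413 at 0.01, 1584 to 4110 when 1 was left out and 4348 with the block. Of the values of single named members under the alternatives, 499 kept their direction and side of the threshold, 64 lost their call and 11 gained one, 7 of these for AT4G12600, 3 for RFC3 and 1 for NRT2.3, and no called value changed its direction. Of the lost calls, 15 were without SUC2:CO replicate 2, 13 without SUC2:CO replicate 3 and 11 without 35S:CO replicate 3. The causes were not tested. Members near 1 CPM rest on few counts, and a difference between the lines that was not called there may lie below what this depth detects.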
